A study of Rattus norvegicus with 10 samples.

Results

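The 10 genes described here encode ligands, receptors and an inhibitor of bone morphogenetic protein (BMP) and transforming growth factor beta (TGF-beta) signalling. They are the BMP ligands Bmp2, Bmp4 and Bmp7, the TGF-beta ligands Tgfb1 and Tgfb2, the type I receptors Bmpr1a and Bmpr1b, the type II receptors Bmpr2 and Acvr2a, and the inhibitory Smad gene Smad7. They were chosen by symbol, and each matched a single gene ID among the 23487 genes of the count table. A list of 68 other genes of the pathway was matched in the same way, and 64 were found, as 65 gene IDs because Smad9 has 2. Bmp5, Nodal, Sostdc1 and Lrrc32 were not matched, so no value can be given for them.

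RNA was sequenced from primary rat cells of the oligodendrocyte lineage, in 5 groups with 2 libraries each. Oligodendrocyte progenitor cells (OPCs) were shaken off mixed glial cultures from the cerebral cortex of newborn Sprague-Dawley rats and transfected with 30 nM of an oligonucleotide. In 3 groups the cells were then kept in differentiation medium with thyroid hormone and ciliary neurotrophic factor and collected 5 days after transfection, as oligodendrocytes (OLs). These groups had received a scrambled mimic (OL miR-ctl), a miR-145 mimic (OL miR-145), or miR-145 and miR-219 mimics together (OL miR-145+miR-219). In the other two groups the cells were kept with FGF2 and PDGF-AA and collected 24 h after transfection with a scrambled inhibitor (OPC anti-miR-ctl) or a miR-145 inhibitor (OPC anti-miR-145). Stranded mRNA libraries were read on a NextSeq 500, and the total count per library was between 33505668 and 42684176. For the OL miR-145 libraries the treatment tag of the labels also names miR-219, whereas their titles and descriptions name miR-145 alone, and they are treated here as miR-145. The sequencing methods of the paper name lentiviral transduction, whereas its results section and the labels name mimics, which are taken as what was used. Mature microRNA is not measured in mRNA libraries, so these data give no level of miR-145 or miR-219 after transfection.

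Marker genes were summed in each library to check the labelled cell stage. The 10 OL markers, of which Mbp was the most abundant in the OL libraries, summed to 20630 and 34520 CPM in OL miR-ctl, 17910 and 27160 in OL miR-145, and 21980 and 37070 in OL miR-145+miR-219. In the OPC libraries the same sum was 1781 and 1880 CPM with the control inhibitor and 1740 and 1738 with anti-miR-145. The 6 OPC markers found, led by Ptprz1, summed to 2290 and 1602 CPM in OL miR-ctl, 2154 and 1974 in OL miR-145, 2340 and 1618 in OL miR-145+miR-219, 4321 and 4180 in OPC anti-miR-ctl, and 3804 and 4949 in OPC anti-miR-145. Both sums separated every OL library from every OPC library. Within the OL groups the ranges of both sums overlapped, and the OL libraries with replicate number 2 had the higher sum of OL markers in each group. The 4 markers of the whole OL lineage, Olig1, Olig2, Sox10 and Nkx2-2, summed to 1877 and 1756 CPM in OL miR-ctl, 1579 and 1462 in OL miR-145, 1583 and 1826 in OL miR-145+miR-219, 2753 and 2616 in OPC anti-miR-ctl, and 3974 and 3992 in OPC anti-miR-145. This sum was lower in OL miR-145 than in OL miR-ctl without overlap, and higher in OPC anti-miR-145 than in its control.

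Markers of other cell types were found in every library and are given because ligands and receptors of this pathway are also expressed outside the OL lineage. The 10 astrocyte markers summed to 6462 and 5439 CPM in OL miR-ctl, 13240 and 8991 in OL miR-145, 10950 and 6469 in OL miR-145+miR-219, 689 and 650 in OPC anti-miR-ctl, and 478 and 530 in OPC anti-miR-145. Gfap was the most abundant of them in all OL libraries, and Gjb6 had no counts in replicate 1 of either OPC group. The 14 microglia markers summed to 549 and 768 CPM in OL miR-ctl, 582 and 1296 in OL miR-145, 539 and 871 in OL miR-145+miR-219, 1318 and 1219 in OPC anti-miR-ctl, and 1327 and 1065 in OPC anti-miR-145. Replicate 2 of OL miR-145 stood apart from the other OL libraries, with the highest microglia sum and with a sum of 6 fibroblast and mural cell markers of 72.2 CPM, against 24.5 CPM in replicate 1. That sum was 12.2 and 12.9 CPM in OL miR-ctl, 20.5 and 23.7 in OL miR-145+miR-219, 11.7 and 11.2 in OPC anti-miR-ctl, and 10.2 and 9.29 in OPC anti-miR-145. The 6 endothelial markers, led by Kdr in the OL and Flt1 in the OPC libraries, summed to at most 21.6 CPM in any library, with 12.2 and 11.8 in OPC anti-miR-ctl and 3.18 and 3.04 in OPC anti-miR-145. That difference was mainly in Flt1, at 10.7 and 10.1 CPM against 0.993 and 0.749, and 1 of the 6 was called. In these bulk libraries, more cells of a type and more RNA per cell cannot be told apart.

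BMP and TGF-beta ligands are secreted dimers that bind complexes of type I and type II receptors, which are serine/threonine kinases in the cell membrane. The type II receptor phosphorylates the type I receptor, which then phosphorylates Smad proteins that enter the nucleus with Smad4. Receptors for BMPs act through Smad1, Smad5 and Smad9, and those for TGF-beta and activin through Smad2 and Smad3. The Id genes are known targets of the BMP branch, and Gfap rises when BMPs drive progenitors towards the astrocyte fate. BMPs are known inhibitors of OL differentiation. MicroRNAs pair with messenger RNAs through bases 2 to 8 of their sequence, the seed, shown here in capitals. The mature sequence of rno-miR-145-5p lies at chr18:57370033-57370055 and that of rno-miR-219a-5p at chr3:33516561-33516581, both on the minus strand of the GRCr8 build. The labels do not name the arm of miR-219. Pairing of these seeds with the 10 genes was not examined, since no transcript sequences were at hand.
rno-miR-145-5p: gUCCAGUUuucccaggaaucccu
rno-miR-219a-5p: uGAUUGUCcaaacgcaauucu

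Bmp2 (ENSRNOG00000021276) encodes a ligand of the BMP branch. Its level was 3.67 and 3.78 CPM in OL miR-ctl, 2.05 and 3.11 in OL miR-145, 2.87 and 3.06 in OL miR-145+miR-219, 0.632 and 1.01 in OPC anti-miR-ctl, and 2.85 and 3.27 in OPC anti-miR-145. Bmp2 was lowest in the OPC control libraries, which overlapped with no other group. Both OL miR-ctl libraries had more Bmp2 than any other library, and the groups between these ends overlapped. Bmp4 (ENSRNOG00000009694), a ligand that OL lineage cells themselves express, was at 354 and 234 CPM in OL miR-ctl, 203 and 143 in OL miR-145, 191 and 178 in OL miR-145+miR-219, 5.31 and 5.45 in OPC anti-miR-ctl, and 8.17 and 9.06 in OPC anti-miR-145. Bmp4 was far higher in all OL than in all OPC libraries. The groups with mimics lay below OL miR-ctl and overlapped each other, and the OPC groups were apart, with the lower levels in the controls. Bmp7 (ENSRNOG00000053384), a further BMP ligand, was at 0.854 and 0.399 CPM in OL miR-ctl, 0.433 and 0.606 in OL miR-145, 0.272 and 0.281 in OL miR-145+miR-219, 6.60 and 6.58 in OPC anti-miR-ctl, and 3.92 and 3.996 in OPC anti-miR-145. Bmp7 had the opposite order of stages to Bmp4, with all OPC libraries above all OL libraries. OPC controls lay above OPC anti-miR-145, OL miR-ctl and OL miR-145 overlapped, and OL miR-145+miR-219 was lowest.

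Tgfb1 (ENSRNOG00000020652) encodes a TGF-beta ligand that microglia also express. It was at 6.96 and 9.92 CPM in OL miR-ctl, 10.2 and 19.9 in OL miR-145, 9.21 and 12.6 in OL miR-145+miR-219, 56.2 and 48.6 in OPC anti-miR-ctl, and 29.3 and 20.3 in OPC anti-miR-145. Tgfb1 was highest in the OPC controls, which were apart from OPC anti-miR-145. Replicate 2 of OL miR-145 came close to the lower of the OPC anti-miR-145 libraries, while the levels of OL miR-145+miR-219 overlapped those of both other OL groups. Tgfb2 (ENSRNOG00000002418), the ligand that needs the co-receptor Tgfbr3 for strong binding, was at 141 and 114 CPM in OL miR-ctl, 108 and 82.1 in OL miR-145, 115 and 85.5 in OL miR-145+miR-219, 23.8 and 24.4 in OPC anti-miR-ctl, and 18.4 and 20.2 in OPC anti-miR-145. Every OL library had more Tgfb2 than every OPC library. OL miR-ctl and OL miR-145 were apart, the combined mimics overlapped with both, and OPC anti-miR-145 lay below its control.

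Bmpr1a (ENSRNOG00000052469) encodes a type I receptor of BMPs that is found in most tissues. Its level was 203 and 174 CPM in OL miR-ctl, 203 and 202 in OL miR-145, 210 and 173 in OL miR-145+miR-219, 84.7 and 79.0 in OPC anti-miR-ctl, and 63.8 and 86.4 in OPC anti-miR-145. All OL libraries were above all OPC libraries for Bmpr1a, and within each stage all groups overlapped. Bmpr1b (ENSRNOG00000016289), the other type I receptor of BMPs among the 10 genes, was at 7.01 and 8.26 CPM in OL miR-ctl, 20.8 and 14.8 in OL miR-145, 19.3 and 10.5 in OL miR-145+miR-219, 0.234 and 0.137 in OPC anti-miR-ctl, and 0.124 and 0.250 in OPC anti-miR-145. The OPC libraries were near the limit of counting for Bmpr1b, with 10 and 5 counts in the controls and 5 and 11 with anti-miR-145. Among OLs, Bmpr1b was lowest in OL miR-ctl, and both groups with mimics were above it and overlapped each other.

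Bmpr2 (ENSRNOG00000022196) encodes the type II receptor that binds BMPs. It was at 98.5 and 66.4 CPM in OL miR-ctl, 74.2 and 83.1 in OL miR-145, 87.0 and 68.5 in OL miR-145+miR-219, 87.1 and 75.5 in OPC anti-miR-ctl, and 57.8 and 93.6 in OPC anti-miR-145. No pair of groups was apart for Bmpr2. Acvr2a (ENSRNOG00000005334), a type II receptor shared by activins and BMPs, was at 31.2 and 33.1 CPM in OL miR-ctl, 26.9 and 26.0 in OL miR-145, 30.0 and 26.2 in OL miR-145+miR-219, 36.2 and 35.8 in OPC anti-miR-ctl, and 31.4 and 38.9 in OPC anti-miR-145. Acvr2a varied little between groups, and its lowest levels were in the OL groups with mimics, which overlapped each other and lay below OL miR-ctl.

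Smad7 (ENSRNOG00000018359) encodes an inhibitory Smad, which blocks the type I receptors and is itself a known target of TGF-beta and BMP signalling. Its level was 30.2 and 36.5 CPM in OL miR-ctl, 23.0 and 30.1 in OL miR-145, 25.8 and 39.0 in OL miR-145+miR-219, 6.15 and 5.81 in OPC anti-miR-ctl, and 5.26 and 5.43 in OPC anti-miR-145. All OL libraries had more Smad7 than all OPC libraries. OL miR-145 lay just below OL miR-ctl, the combined mimics overlapped with both, and OPC anti-miR-145 lay below its control. Smad binding sites were looked for in the promoters of the 7 of the 10 genes with a promoter sequence at hand, which leaves out Bmp2, Bmp7 and Bmpr1b. The palindrome GGCGCC, bound by Smad1 and Smad5, was in the promoters of Smad7 and Acvr2a, and in 11% of all 33469 promoters. G and C made up 77.7% of the Smad7 promoter and 51% of that of Acvr2a, and the share over all promoters was not matched for this. The Smad3 box CAGAC was in the promoter of Bmp4, and in 50.1% of all promoters. The longer Smad3 and Smad4 palindrome GTCTAGAC was in 0 of the 7 and in 0.197% of all. The 250 bases before the start of Smad7, at chr18:71263258-71263507 on the plus strand of GRCr8, hold GGCGCC at bases 155 and 215 and are printed here with it in capitals.
Smad7 promoter: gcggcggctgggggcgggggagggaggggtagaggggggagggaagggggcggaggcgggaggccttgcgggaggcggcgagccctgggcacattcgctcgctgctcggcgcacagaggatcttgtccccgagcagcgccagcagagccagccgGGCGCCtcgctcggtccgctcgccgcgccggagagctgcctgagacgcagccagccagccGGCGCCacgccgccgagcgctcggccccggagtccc

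**Figure D1:**
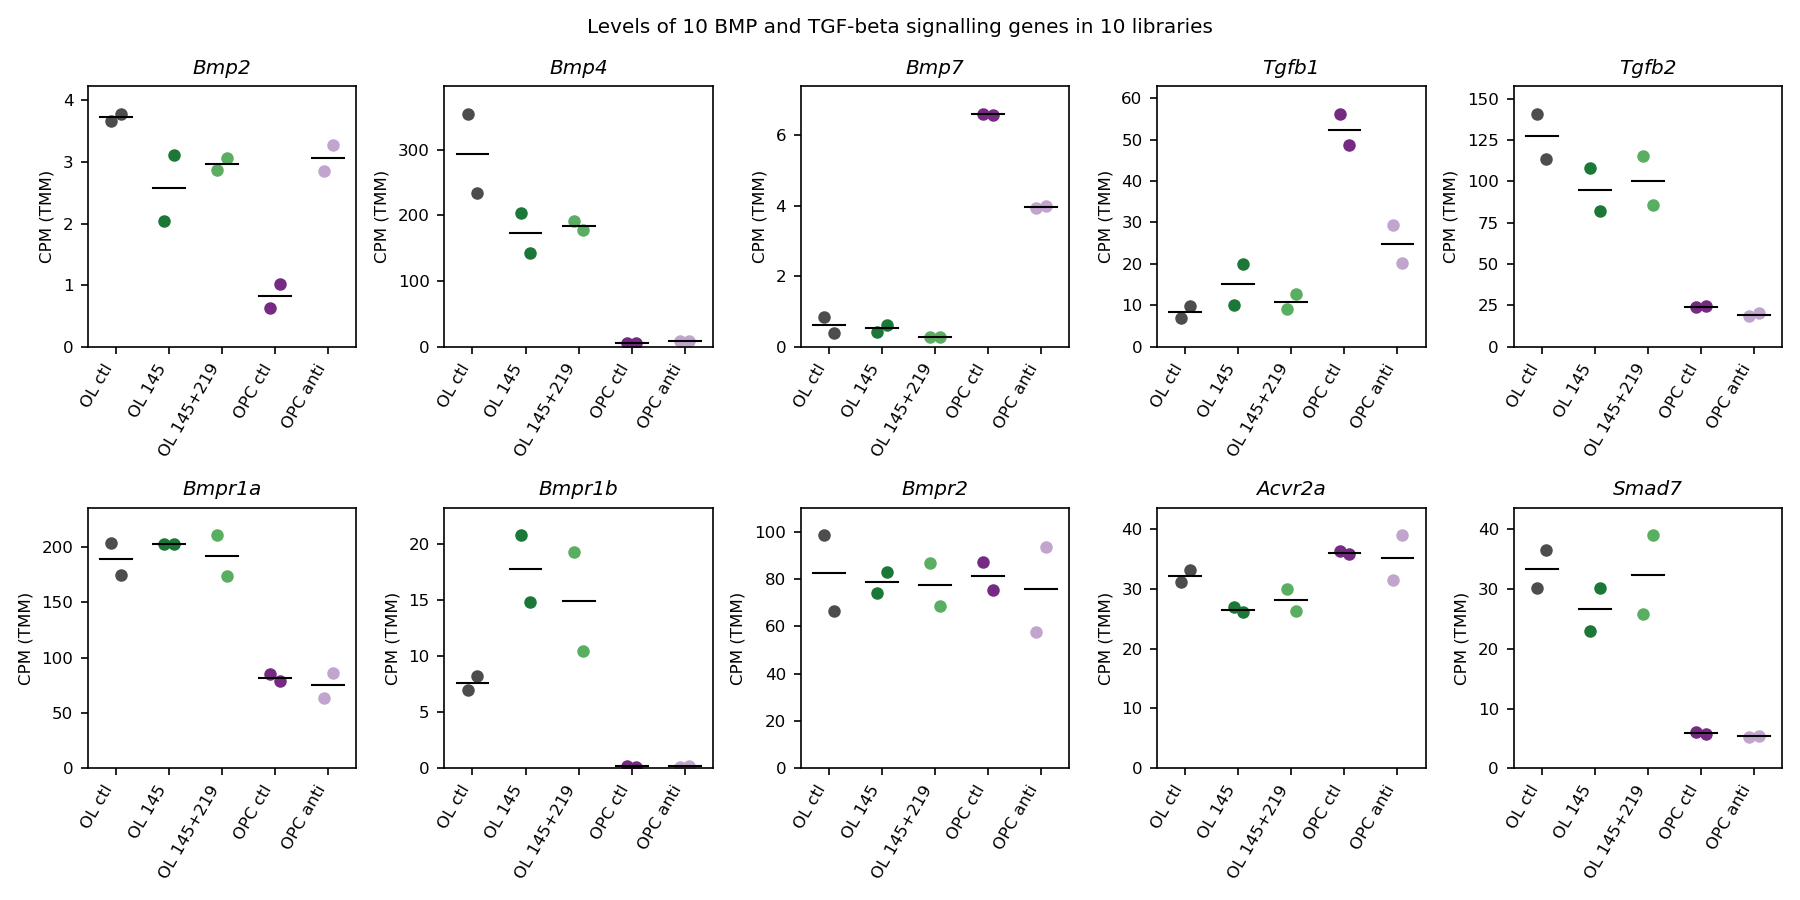
Level of each of the 10 genes in each of the 10 libraries, in CPM after TMM scaling, with a point per library and a bar at the group mean (n = 2). Bmp4 lies between 143 and 354 CPM in the OL libraries and between 5.31 and 9.06 in the OPC libraries, whereas Bmpr2 overlaps across all groups.

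The comparison of OL miR-ctl with OPC anti-miR-ctl asks how far the pathway differs between the stages when neither received a miR-145 oligonucleotide. Cell stage, medium, time after transfection and kind of control oligonucleotide differ together in it and cannot be told apart. It was tested, as were all comparisons, with the quasi-likelihood F-test of edgeR, and its p values, adjusted by the method of Benjamini and Hochberg over every gene tested, are called edgeR adjusted p here. Of the 15721 genes tested, 9042 were called (57.5%), with 4531 higher (28.8%) and 4511 lower (28.7%) in OLs. Of the 10 genes, 8 were called, 6 higher and 2 lower in OLs. Being called is common in this comparison, for the 10 genes as for all genes. Groups without overlap were found for 12842 genes (81.7%), and for 9 of the 10, all but Bmpr2.

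Bmp4 was 54.5-fold higher in OLs, with a log2 fold change of 5.77 (SE 0.25; edgeR adjusted p = 8.14e-05). For Bmpr1b, with 10 and 5 counts in the OPC controls, the log2 fold change was 5.31 (SE 0.30; edgeR adjusted p = 0.000155). Smad7 was 5.55-fold higher in OLs (log2 fold change 2.47, SE 0.14; edgeR adjusted p = 0.000149). Tgfb2 was 5.26-fold higher (log2 fold change 2.40, SE 0.13; edgeR adjusted p = 0.000132). The increase of Bmp2 was 4.52-fold (log2 fold change 2.18, SE 0.30; edgeR adjusted p = 0.00276), and that of Bmpr1a 2.30-fold (log2 fold change 1.20, SE 0.10; edgeR adjusted p = 0.000537). Both called decreases were in ligands. Bmp7 was 10.3-fold lower in OLs (log2 fold change -3.37, SE 0.35; edgeR adjusted p = 0.00104) and Tgfb1 6.24-fold lower (log2 fold change -2.64, SE 0.19; edgeR adjusted p = 0.000329).

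The type II receptors were not called between the stages. Bmpr2 had a log2 fold change of 0.02 (SE 0.20; edgeR adjusted p = 0.950), which rested on single libraries. Without OL miR-ctl replicate 1 it was -0.30 (edgeR adjusted p = 0.00949), and without OL miR-ctl replicate 2 it was 0.27 (edgeR adjusted p = 0.0128). Over all alternatives, DESeq2 among them, its adjusted p ranged from 0.00949 to 0.976. For Acvr2a the log2 fold change was -0.17 (SE 0.09; edgeR adjusted p = 0.145), and it was called only without OL miR-ctl replicate 2, at -0.21 (edgeR adjusted p = 0.0489, in a range from 0.0489 to 0.439). The OL libraries with higher and lower Bmpr2 were thus further apart than the stages.

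Of the 62 other pathway genes tested between the stages, 44 were called, 26 higher and 18 lower in OLs. By role, the calls were 5 of 8 ligands (2 higher, 3 lower), 3 of 4 type I receptors (2 higher, 1 lower), 1 of 3 type II receptors (Tgfbr2, lower) and all 4 co-receptors (3 higher, 1 lower). Further calls were 3 of 7 signalling Smads (2 higher, 1 lower), 7 of 8 intracellular inhibitors (5 higher, 2 lower), 8 of 11 extracellular antagonists (4 higher, 4 lower) and 6 of 7 genes for the storage and release of TGF-beta (1 higher, 5 lower). Among target genes, 7 of 10 were called and all 7 were higher in OLs, namely Id2, Id3, Id4, Msx2, Tgfbi, Ccn2 and Gfap. The number of pathway genes called fell to 26 without OPC anti-miR-ctl replicate 1 and to 28 without replicate 2, as the number of all genes called fell to 5071 and 5016. Among the targets Id2 and Ccn2 were not called without either of them, nor Tgfbi without replicate 1, while Id3, Id4, Msx2 and Gfap were called under all 9 alternatives.

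Gfap, which is on the lists of both targets and astrocyte markers, was at 4799 and 4179 CPM in OL miR-ctl against 8.23 and 7.81 in the OPC controls (log2 fold change 9.12; edgeR adjusted p = 3.07e-05). Smad6, the other inhibitory Smad gene, had 115 and 113 counts in OL miR-ctl and 2 and 4 in the OPC controls. For the BMP target Msx2 the counts were 70 and 56 against 4 and 4, and for the TGF-beta target Ccn2 they were 40 and 16 against 5 and 3. Without OPC anti-miR-ctl replicate 1 or 2, Ccn2 was not called. The co-receptor Tgfbr3 was at 61.6 and 83.5 CPM against 12.1 and 11.4 (log2 fold change 2.62; edgeR adjusted p = 0.000229). Among the decreases, the antagonist Fst had 1 and 4 counts in OL miR-ctl against 55 and 49, and the ligand Bmp3 had 5 and 8 against 61 and 43. Gdf15, a ligand, was at 4.25 and 2.76 CPM against 20.6 and 19.8 (log2 fold change -2.52; edgeR adjusted p = 0.000575), and the antagonist Bmper at 2.01 and 2.00 against 8.21 and 7.26 (log2 fold change -1.95; edgeR adjusted p = 0.000591). Inha, with 3 and 2 counts against 9 and 12, was called under 1 of 8 alternatives only. Astrocyte markers differed in the same comparison, with 9 of 10 called and all 9 higher in OLs, and microglia markers with 2 of 14 called higher and 6 lower. Whether a member of the pathway differed within OL lineage cells or through the share of astrocytes or microglia was not tested.

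The comparison of OPC anti-miR-145 with OPC anti-miR-ctl asks what changes when miR-145 is inhibited in progenitors. Here 4348 of 15496 genes were called (28.1%), with 1874 higher (12.1%) and 2474 lower (16%). Of the 10 genes, 4 were called, 2 higher and 2 lower, and all 4 encode ligands. DESeq2 also called 4 of the 10, among 4103 genes. The groups did not overlap for 10507 of all genes (67.8%), and for 6 of the 10, the other two being Tgfb2 and Smad7.

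Bmp2 rose 3.78-fold with the miR-145 inhibitor (log2 fold change 1.92, SE 0.28; edgeR adjusted p = 0.00303) and was called under all 9 alternatives. Bmp4 rose 1.62-fold (log2 fold change 0.69, SE 0.13; edgeR adjusted p = 0.00808). It was not called in the fit of all 5 groups (edgeR adjusted p = 0.0725) or without OPC anti-miR-ctl replicate 1 (edgeR adjusted p = 0.0643), in a range over all alternatives, DESeq2 among them, from 0.00209 to 0.0725. Bmp7 fell 1.65-fold (log2 fold change -0.72, SE 0.14; edgeR adjusted p = 0.00942), and in the fit of all 5 groups it was not called (edgeR adjusted p = 0.127, in a range from 0.00503 to 0.127). Tgfb1 fell 2.09-fold (log2 fold change -1.06, SE 0.18; edgeR adjusted p = 0.00531), again except in the fit of all 5 groups (edgeR adjusted p = 0.0606, in a range from 6.82e-08 to 0.0606). Bmp2, Bmp4 and Bmp7 therefore did not move in a common direction, and Bmp2 was the only one of the 10 genes called under all 9 alternatives.

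For Tgfb2 the log2 fold change was -0.31 (SE 0.10; edgeR adjusted p = 0.0519). It was called in 3 of 9 alternatives, where the adjusted p from edgeR was 0.0486 with no filter, 0.0439 with a filter at 10 counts, and 0.00926 without OPC anti-miR-145 replicate 2, in a range from 0.00926 to 0.312. The receptors and Smad7 were not called, with log2 fold changes of -0.11 for Bmpr1a, 0.02 for Bmpr1b, -0.09 for Bmpr2, -0.02 for Acvr2a and -0.15 for Smad7. The lowest edgeR adjusted p among them was 0.453, that of Smad7. OPC anti-miR-145 replicate 2 weighed on the receptors. Without it the log2 fold change was -0.33 for Bmpr1a (edgeR adjusted p = 0.00408, in a range from 0.00408 to 0.839) and -0.46 for Bmpr2 (edgeR adjusted p = 0.00142, in a range from 0.00142 to 0.992), 7 of the 10 genes were called, and 7130 of all genes. Without OPC anti-miR-ctl replicate 1 or 2, the number of all genes called was 2424 or 2530.

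Of the 61 other pathway genes tested with the inhibitor, 27 were called, 8 higher and 19 lower, and DESeq2 called 26. By role, they were 3 of 8 ligands (1 higher, 2 lower), 1 of 4 type I receptors (Tgfbr1, higher) and 1 of 3 type II receptors (Tgfbr2, lower). Further calls were 2 of 4 co-receptors (Tgfbr3 higher, Eng lower) and 1 of 7 signalling Smads (Smad9, lower). The Smad9 call was for 1 of its 2 gene IDs and the other was not called, so a change of Smad9 is uncertain. Of the intracellular inhibitors 5 of 8 were called, with Smurf1 and Pmepa1 higher and Skil, Bambi and Zeb2 lower. All 4 antagonists called among 11 were lower, namely Nog, Bmper, Fst and Grem1. Of the genes for storage and release, 4 of 7 were called, with Ltbp4 higher and Ltbp1, Thbs1 and Nrros lower. Among the targets Gfap was called higher and Id1, Id2, Id3 and Id4 lower. In the fit of all 5 groups 16 of the pathway genes were called, and 18 without OPC anti-miR-ctl replicate 1, which was the lowest count with a library left out. Without that library Smurf1, Tgfbr1, Tgfbr2, Bambi, Bmper, Thbs1, Id2, Id3 and Id4 were not called, and without OPC anti-miR-ctl replicate 2 Smurf1, Tgfbr1, Pmepa1, Thbs1 and Id2 were not. Thbs1 was also not called without OPC anti-miR-145 replicate 1. The ligands Bmp6 and Gdf15, both lower, and Grem1, Nog, Skil, Zeb2, Tgfbr3, Ltbp4, Id1 and Gfap were called under all 9 alternatives.

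Gfap was at 40.7 and 51.1 CPM with anti-miR-145 against 8.23 and 7.81 in the controls (log2 fold change 2.53; edgeR adjusted p = 6.22e-05). Tgfbr3 was at 24.9 and 33.3 CPM against 12.1 and 11.4 (log2 fold change 1.32; edgeR adjusted p = 0.000789). The ligand Bmp3 was at 2.51 and 3.27 CPM against 1.43 and 1.18 (log2 fold change 1.16; edgeR adjusted p = 0.0120), and without OPC anti-miR-ctl replicate 2 it was not called. Ltbp4, which holds latent TGF-beta in the matrix, was at 117.5 and 122 CPM against 67.2 and 65.8 (log2 fold change 0.86; edgeR adjusted p = 0.000340). The increase of Bmp3 and the decrease of Fst were not called in the fit of all 5 groups, with edgeR adjusted p values of 0.131 and 0.0528.

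The largest decreases were in a ligand, antagonists and a target of the BMP branch. Bmp6 had 1 and 0 counts with anti-miR-145 against 15 and 19 in the controls, and the antagonist Grem1 had 2 and 3 against 16 and 18. The antagonist Fst was at 0.422 and 0.295 CPM against 1.29 and 1.34 (log2 fold change -1.85; edgeR adjusted p = 0.00723). Id1 was at 7.10 and 7.74 CPM against 28.3 and 25.8 (log2 fold change -1.85; edgeR adjusted p = 8.27e-05). The antagonist Nog was at 0.472 and 0.295 CPM against 1.33 and 1.15 (log2 fold change -1.68; edgeR adjusted p = 0.0137). Ligands of the BMP branch thus moved both ways, while the Id targets and the antagonists that were called were lower.

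Markers of the OL lineage and of other cells also differed with the inhibitor in OPCs. All 4 markers of the whole lineage were called higher, OPC markers were called for 4 of 6 (1 higher, 3 lower) and OL markers for 4 of 10 (2 higher, 2 lower). Of the 14 microglia markers 13 were called, 8 higher, among them C1qa, Trem2 and Cx3cr1, and 5 lower, among them Aif1, Itgam and Ptprc, while their sum overlapped between the groups. Of the 9 astrocyte markers tested 6 were called, 2 higher and 4 lower, and their sum was lower with anti-miR-145. Neuron markers were called higher for 3 of 6, and their sum was 144 and 136 CPM in the controls and 197.5 and 194 with anti-miR-145. Per 1000 CPM of microglia markers, Tgfb1 was at 42.6 and 39.9 in the controls and 22.1 and 19.1 with anti-miR-145. Since the markers in that sum moved in both directions, the ratio depends on which of them carry it. Aif1 was at 98.3 and 61.4 CPM with anti-miR-145 against 207 and 219, and Itgam at 33.1 and 31.5 against 105 and 89.7. Relative to Aif1 and Itgam, Tgfb1 was not lower. Relative to Csf1r, at 243.6 and 208.2 CPM against 324.2 and 282.0, and to the 8 markers called higher, Tgfb1 was lower. Whether Tgfb1 differed within microglia was not tested.

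Comparing the libraries of OL miR-145 and OL miR-ctl asks what a miR-145 mimic changes in cells under differentiation. With edgeR 0 of 15461 genes were called (0%). Without adjustment 2067 genes had p under 0.05 (13.4%), and DESeq2 called 649, of which 535 were higher and 114 lower. The groups did not overlap for 7309 genes (47.3%), and for 7 of the 10 genes. Of those 7, Tgfb1 and Bmpr1b were higher and Bmp2, Bmp4, Tgfb2, Acvr2a and Smad7 lower with miR-145. Of the 10 genes edgeR called 0, 2 had an unadjusted p under 0.05 (Bmp4 and Bmpr1b), and DESeq2 called 1 (Bmpr1b). With the replicate number as a term, edgeR called 4 of the 10 (Tgfb2, Bmp4, Bmpr1b and Tgfb1). Whether that number marks a shared culture is not stated. Counts from that fit are also given with the dependence on the processing.

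For Bmpr1b the log2 fold change with miR-145 was 1.23 (SE 0.22; edgeR adjusted p = 0.164). DESeq2 gave the same log2 fold change with an adjusted p of 0.000713, in a range over the 9 alternatives without a replicate term from 0.000713 to 0.561. For Bmp4 the log2 fold change was -0.76 (SE 0.26; edgeR adjusted p = 0.320), and it ranged from -1.04 to -0.43 over the same alternatives. Tgfb1 had a log2 fold change of 0.85 (SE 0.37; edgeR adjusted p = 0.399), which was 0.27 without OL miR-145 replicate 2, the library with the highest sum of microglia markers. The remaining log2 fold changes were -0.52 for Bmp2, -0.27 for Bmp7, -0.41 for Tgfb2, 0.11 for Bmpr1a, -0.06 for Bmpr2, -0.28 for Acvr2a and -0.32 for Smad7. The median over the 10 genes was -0.27, and over all genes tested it was -0.01.

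Of the 61 other pathway genes tested with miR-145, edgeR called 0, 11 had an unadjusted p under 0.05, and DESeq2 called 4, namely Gfap, Rgma and Nbl1 higher and Skil lower. The edgeR fit with the replicate number as a term called 15 of these 61, 12 higher and 3 lower. The groups did not overlap for 32 of them, 22 higher and 10 lower. The antagonist Nbl1 was at 216 and 164 CPM with miR-145 against 85.3 and 90.0 in the controls. Skil, an intracellular inhibitor, was at 28.1 and 32.3 CPM against 46.8 and 43.7. The type I receptor Acvr1b was at 38.7 and 39.0 CPM against 52.1 and 49.7, and Ltbp2, of the storage genes, had 12 and 20 counts against 1 and 2. The smallest edgeR adjusted p among the pathway genes was 0.158, that of Nbl1. Of the 10 astrocyte markers all 10 had fitted changes towards higher levels with miR-145 and 8 did not overlap, and edgeR called 0 of them. Per 1000 CPM of astrocyte markers, Bmpr1b was at 1.08 and 1.52 in OL miR-ctl and 1.57 and 1.65 in OL miR-145, so that the gap between the groups was narrower than in CPM. Of the 4 markers of the whole OL lineage, 3 lay lower with miR-145 without overlap and 0 were called. All 14 microglia markers also had fitted changes towards higher levels, with 0 called and 4 not overlapping. Per 1000 CPM of these, Tgfb1 was at 12.7 and 12.9 in OL miR-ctl and 17.5 and 15.4 in OL miR-145. Whether either gene differed within a cell type was not tested.

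The comparison of OL miR-145+miR-219 with OL miR-ctl asks what the mimics change together. It shares its control libraries with the comparison of miR-145 alone, so likeness between their values is not independent. With edgeR 0 of 15436 genes were called (0%), 956 had an unadjusted p under 0.05 (6.19%), and DESeq2 called 106. The groups did not overlap for 5660 genes (36.7%), and for 5 of the 10 genes, with Bmpr1b higher and Bmp2, Bmp4, Bmp7 and Acvr2a lower. Of the 10 genes edgeR called 0, 2 had an unadjusted p under 0.05, and DESeq2 called 0. These were Bmp4, with a log2 fold change of -0.67 (SE 0.22; edgeR adjusted p = 0.800), and Bmpr1b, with 0.97 (SE 0.32; edgeR adjusted p = 0.800). For Bmp7, with 10 to 34 counts per library in these groups, the log2 fold change was -1.18 (SE 0.54; edgeR adjusted p = 0.814). The others were -0.33 for Bmp2, 0.38 for Tgfb1, -0.34 for Tgfb2, 0.03 for Bmpr1a, -0.08 for Bmpr2, -0.19 for Acvr2a and -0.04 for Smad7.

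Of the 63 other pathway genes tested with the combined mimics, edgeR called 0, 4 had an unadjusted p under 0.05, and DESeq2 called 1, Nbl1. Nbl1 was at 196 and 130 CPM with the mimics, against 85.3 and 90.0 in the controls. Skil was at 34.0 and 34.8 CPM against 46.8 and 43.7, and the antagonist Fstl3 at 0.494 and 0.589 against 0.251 and 0.215. The groups did not overlap for 25 of the 63. Per 1000 CPM of astrocyte markers, Bmpr1b was at 1.76 and 1.63 with the combined mimics.

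The comparison of OL miR-145+miR-219 with OL miR-145 asks what miR-219 adds. With edgeR 0 of 15501 genes were called (0%), 228 had an unadjusted p under 0.05 (1.47%), and DESeq2 called 9. The groups did not overlap for 3843 genes (24.8%), and for 1 of the 10 genes, Bmp7, which was lower with both mimics. Of the 10 genes edgeR called 0, 0 had an unadjusted p under 0.05, and DESeq2 called 0. The log2 fold changes were -0.92 for Bmp7 (SE 0.44), -0.48 for Tgfb1, -0.26 for Bmpr1b and 0.27 for Smad7. For Tgfb1 the value without OL miR-145 replicate 2 was 0.10. Those of Bmp2, Bmp4, Tgfb2, Bmpr1a, Bmpr2 and Acvr2a were 0.18, 0.08, 0.07, -0.09, -0.03 and 0.08. Of the 62 other pathway genes edgeR called 0, 1 had an unadjusted p under 0.05, and DESeq2 called 0. In the fit with the replicate number as a term, Gfap and Eng were called lower. Acvr1b was at 43.6 and 45.3 CPM with both mimics against 38.7 and 39.0 with miR-145 alone, and the type II receptor Acvr2b at 4.15 and 6.09 against 3.03 and 3.76. Fstl1, an antagonist, was at 23.3 and 16.2 CPM against 27.4 and 27.2, and Ltbp2 had 6 and 5 counts against 12 and 20.

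**Figure D2:**
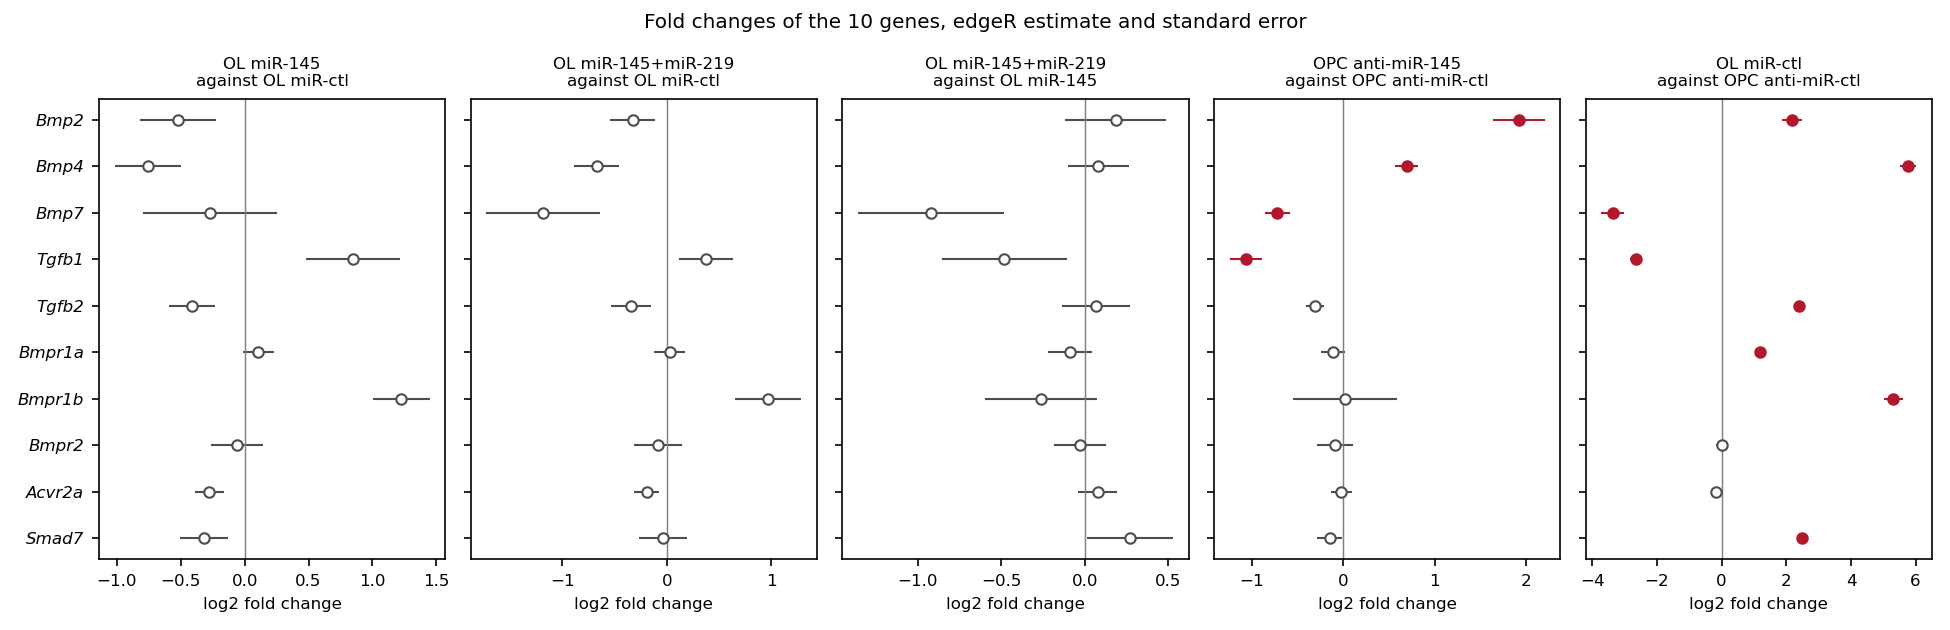
Log2 fold change of each of the 10 genes in each comparison from edgeR, with bars of 1 SE and filled points for genes called. The calls are in the comparisons of OPC anti-miR-145 and of the stages, where Bmp4 reaches 5.77 and Bmp7 -3.37.

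An effect called in OPCs and not in OLs was not shown to differ between the stages, since the difference was not tested. The oligonucleotides also differed, an inhibitor in OPCs and a mimic in OLs, as did the medium and the time of collection. Bmp4 and Bmp2 rose with the inhibitor in OPCs. In OLs with the mimic their levels lay below those of the control libraries, without being called in fits that left out the replicate number. With that number as a term Bmp4 was called and Bmp2 was not. Tgfb1 and Bmpr1a also had fitted changes in opposite directions with inhibitor and mimic. Bmp7, Tgfb2, Bmpr1b, Bmpr2, Acvr2a and Smad7 had fitted changes in the same direction with both. Several of these directions rest on values near 0. With the inhibitor, log2 fold changes were 0.02 for Bmpr1b (SE 0.57), -0.02 for Acvr2a (SE 0.11) and -0.09 for Bmpr2 (SE 0.20). With the mimic, Bmp7 was at -0.27 (SE 0.53). Leaving out a library reversed Bmpr1a, Bmpr1b, Bmpr2 and Acvr2a with the inhibitor, and Bmp7, Bmpr1a and Bmpr2 with the mimic.

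**Figure D3:**
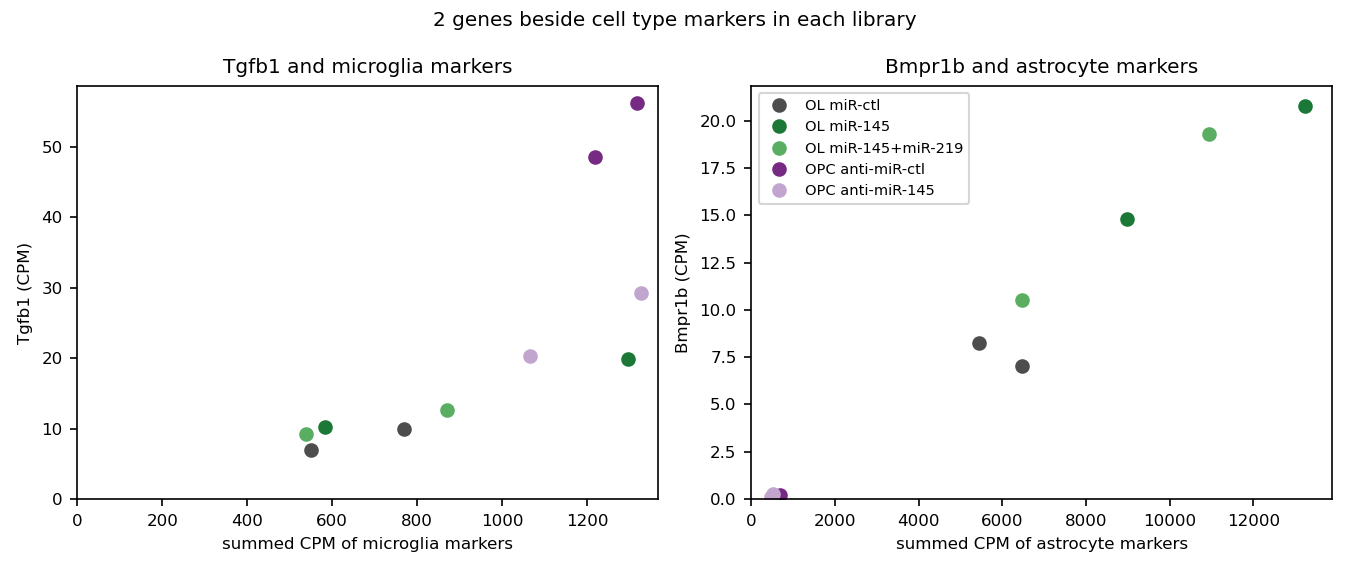
Levels of Tgfb1 against the summed microglia markers and of Bmpr1b against the summed astrocyte markers, in CPM, with a point per library. OL miR-145 replicate 2 has 1296 CPM of microglia markers, and the OPC controls have the highest levels of Tgfb1.

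Profiles like those of the 10 genes were looked for among 12024 genes over the 10 libraries, as Pearson correlations of log2(CPM + 1) without a test, since the OL and OPC libraries form separate clusters. For Bmp4, whose group means span 5.50 units on that scale, the genes with the closest profiles were Dgat2 (0.9991), Mycl (0.9989) and Tbc1d14 (0.9986). Those of Bmpr1b, whose group means span 3.97 units, were Ttyh1 (0.9991), Aplp2 (0.9980) and Hspb8 (0.9978). For Tgfb2 they were Flvcr2 (0.9978), Acot1 (0.9966) and Mreg (0.9953). None of the 9 is on the list of pathway genes. The part of these correlations that the difference between stages makes up was not separated, and relations within a stage were not tested.

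With 2 libraries per group, only large differences or small spreads can be called, and a gene that was not called is not shown to be unchanged. The libraries are bulk mRNA, so protein, phosphorylated Smads and secreted ligand were not measured. Whether a number marks libraries from the same culture is not stated, and the groups were therefore fitted without it. The levels of the 10 genes were not compared with each other, because no transcript lengths were at hand. The table covers genes and not transcripts, so isoforms of Bmpr1a or Tgfb2 cannot be told apart. Astrocyte and microglia markers were found in all groups, and from which cells a ligand or receptor came was not measured.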

How the data were processed

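The deposited table holds estimated counts per gene, which the authors made with Salmon 0.12.0 and summed to genes. Here they were rounded to whole numbers and tested with edgeR 4.0.16 in R 4.3.3 by quasi-likelihood, each comparison fitted on its own 4 libraries. A gene was kept when 2 or more of the 4 libraries had 5 counts or more, and Benjamini-Hochberg adjusted p values under 0.05 over all genes tested are called. Levels are CPM, counts scaled to library size, after TMM over the 10 libraries. The SE of a log2 fold change was taken from the F statistic. The 10 genes are named in every comparison. From a list of other pathway genes, up to 5 called genes with the largest fitted change in each direction are named, and where none is called, up to 2 in each direction with the smallest p among those whose groups do not overlap. The genes and lists were chosen with earlier results of these data known. Alternatives were DESeq2 1.42.0 and its size factors, other filters, a fit of all 5 groups, a replicate term and leaving out each library. Ranges over alternatives, and counts out of 9, leave out the replicate term, which is reported with the dependence on the processing. Replicates share only a number in the labels, which name no shared culture.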

Additional observations from a re-analysis of the deposited data

How the results depend on the processing

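Of the counts of genes called under the alternatives, 125 stayed within 1.5 times the value reported and 25 did not. Of the fold changes of the 10 genes, 454 kept their direction and side of the threshold, 12 became called, 4 were no longer called and 30 reversed. DESeq2 called 649 genes, 1 of the 10 and 4 pathway genes with miR-145, 106 genes and 1 pathway gene with both mimics against the control, and 9 genes between the mimic groups. The fit of all 5 groups called 79 genes with miR-145 and, with anti-miR-145, 2657 genes, 1 of the 10 (Bmp2) and 16 pathway genes. With no filter 1 gene was called with both mimics against the control. With the replicate number as a term, 2272 genes, 4 of the 10 (Tgfb2, Bmp4, Bmpr1b and Tgfb1) and 15 pathway genes were called with miR-145, 132 genes with both mimics against the control, and 184 genes and 2 pathway genes (Gfap and Eng) between the mimic groups. Whether that number marks a shared culture is not stated: the correlation across genes of replicate deviations was 0.403, 0.467 and 0.632 in those comparisons, -0.152 with anti-miR-145 and 0.068 between stages. In that fit Bmpr2 between stages was -0.007, and with a filter at 10 counts Bmpr1b with anti-miR-145 was -0.003. CPM without TMM gave a median log2 ratio of OL miR-ctl to OPC anti-miR-ctl over the 10 genes of 1.56, against 1.69 with it. Without 1 library at a time, the lone library of an arm being assumed to vary like the others, 2424 to 7130 genes and 3 to 7 of the 10 were called with anti-miR-145, and 5016 to 10591 genes and 26 to 49 pathway genes between stages. Log2 fold changes that reversed then ranged, with miR-145, from -0.71 to 0.39 for Bmp7, -0.007 to 0.23 for Bmpr1a and -0.33 to 0.26 for Bmpr2. With both mimics against the control they ranged from -0.11 to 0.15 for Bmpr1a, -0.34 to 0.24 for Bmpr2 and -0.38 to 0.24 for Smad7. Between the mimic groups they ranged from -0.089 to 0.54 for Bmp2, -0.14 to 0.34 for Bmp4, -0.89 to 0.10 for Tgfb1, -0.16 to 0.27 for Tgfb2, -0.23 to 0.041 for Bmpr1a, -0.76 to 0.11 for Bmpr1b, -0.21 to 0.13 for Bmpr2, -0.018 to 0.17 for Acvr2a and -0.057 to 0.54 for Smad7. With anti-miR-145 they ranged from -0.33 to 0.079 for Bmpr1a, -0.56 to 0.44 for Bmpr1b, -0.46 to 0.20 for Bmpr2 and -0.17 to 0.11 for Acvr2a, and between stages from -0.30 to 0.27 for Bmpr2. The cause was not tested. Depth limits Bmpr1b in OPCs, at 5 to 11 counts, and Bmp7 in OLs, at 10 to 34.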
